A study of Mus musculus with 22 samples.

Results

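Tox and Tox2 encode TOX and TOX2, nuclear DNA-binding proteins of the high mobility group box family. The data described here are the called peaks of chromatin immunoprecipitation sequencing (ChIP-seq, which maps where a protein or a histone mark sits on DNA) that overlapped either gene body or the 10 kb on each side of it, in all 18 peak lists of the study. The rule selected 2 of 21900 protein-coding genes and 454 of 362285 peaks, of which 405 lay at Tox and 49 at Tox2. Tox spans 305 kb on chromosome 4 (chr4:6686353-6991557) and Tox2 spans 121 kb on chromosome 2 (chr2:163203058-163324172). All coordinates are of mm10. The gene ends are those of RefSeq on GRCm38.p6, which does not tell exons from introns in the table used here.

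TOX is known from thymus development and from exhausted CD8 T cells, where calcium signals through calcineurin and the factor NFAT switch the gene on and TOX helps to set the chromatin of the exhausted state. TOX2 is known as a relative with partly shared function in exhausted cells and as a factor of follicular helper T cells. NFAT1 is the NFAT protein encoded by Nfatc2. In regulatory T cells (Treg cells, which hold back immune responses and are defined by the transcription factor Foxp3), Foxp3 is known to work together with NFAT and with other DNA-binding partners.

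The cells were primary Treg cells of mouse spleen and lymph nodes, stimulated for 1 h with a commercial cocktail and fixed with 1% formaldehyde, for 5 min for histone ChIP and for 30 min for factor ChIP. IkE5-deletion cells (IkE5) were set against wild-type (WT) cells. The name IkE5 is not expanded in the labels. The title of the series names Ikzf1, which encodes the zinc finger factor Ikaros. Age, strain and the driver of the deletion are not given in the sources used here. Foxp3, the histone acetyltransferase p300, NFAT1 and H3K27ac (acetylated lysine 27 of histone H3, a mark of active promoters and enhancers) had 2 libraries each in IkE5 and in WT, and Ikaros had 2 libraries in WT only. A further 4 samples were inputs, which had no peak list and were not used here.

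The lists held 3435 to 26641 peaks for the factors, and the H3K27ac lists covered 54.6 to 79.6 Mb. A list gives positions without reads or scores, so the read depth is unknown, and a missing peak means that none was called and not that nothing was bound. As a check of the cell type, H3K27ac peaks were present in all 4 libraries at 8 of 8 Treg marker genes and 4 of 4 general T cell genes. The same held for 2 of 5 B cell, 3 of 5 myeloid and 2 of 5 CD8 T and natural killer cell genes, while Ms4a1, Csf1r, Lyz2 and Ncr1 had no H3K27ac peak in any library. The labels do not say whether the libraries of a genotype stem from different mice, so each p-value reflects library spread that may be technical. An exact permutation test of 2 libraries against 2 can give no 2-sided p below 0.333.

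Tox was among the genes with the most peaks of every target, and Tox2 was a sparser locus. In WT libraries Tox had the 5th highest mean number of H3K27ac peaks of all 21900 genes, the 7th highest of p300 and of NFAT1, the 12th highest of Ikaros and the 14th highest of Foxp3, where the Ikaros and Foxp3 places were shared with other genes. Tox2 ranked 4503 for H3K27ac, 246 for p300, 1104 for NFAT1, 600 for Ikaros and 422 for Foxp3. These ranks carry the length of the gene. Per length, NFAT1 peaks at Tox numbered 3.07 and 2.77 per 100 kb in IkE5 and 4 and 3.69 per 100 kb in WT. At Tox2 they numbered 0 in both IkE5 libraries and 0.709 and 1.42 per 100 kb in WT. H3K27ac covered 24.8% and 19.6% of the Tox window in IkE5 and 40.3% and 21.8% in WT. It covered 2.23% and 1.37% of the Tox2 window in IkE5 and 3.89% and 2.60% in WT. The share of the window under H3K27ac at Tox was thus above that at Tox2 in each of the 4 libraries.

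**Figure D1:**
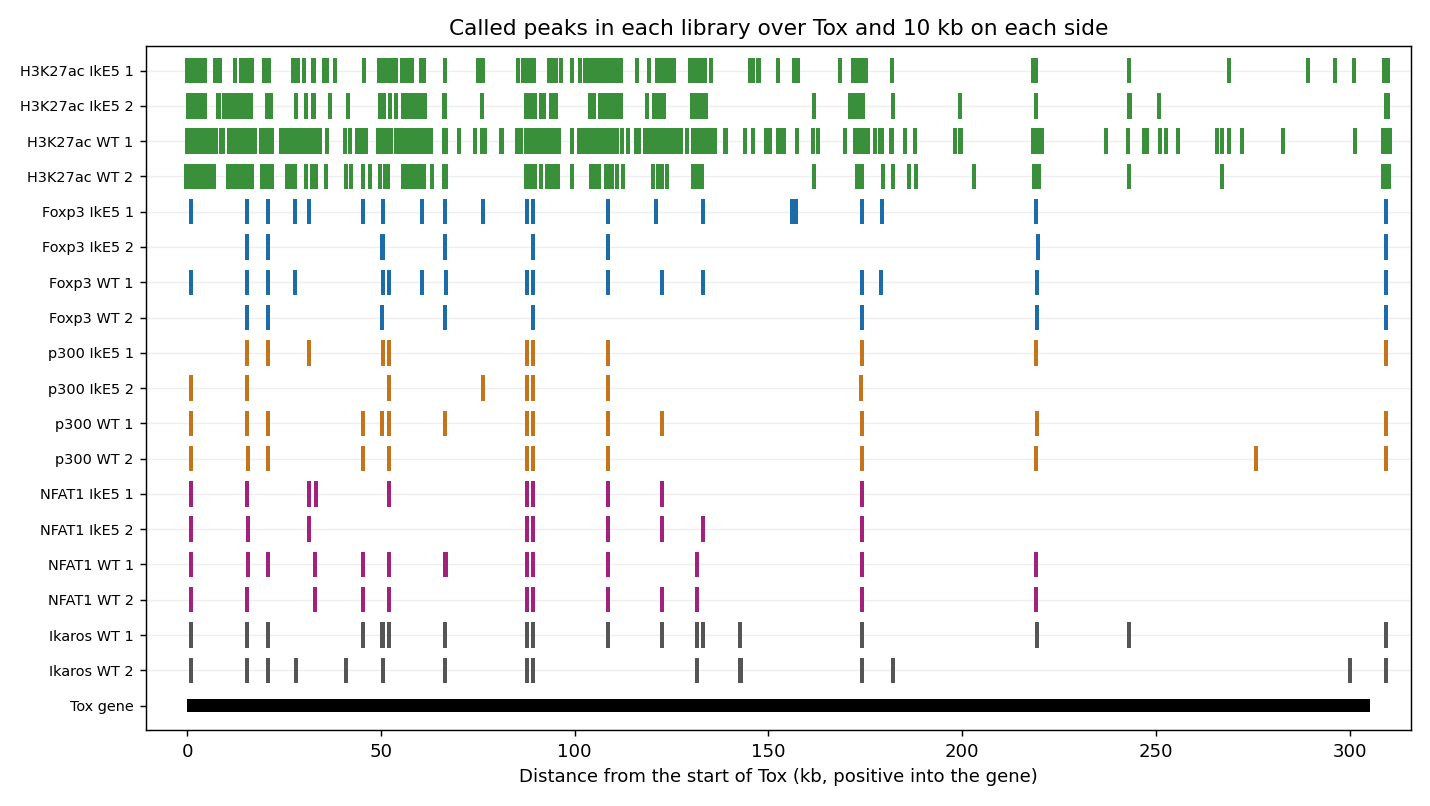
Called peaks over Tox in each of the 18 libraries (rows, IkE5 above WT for each target), by distance in kb from the start of the gene, taken as its higher-coordinate end, with the gene as a black bar and narrow peaks drawn at a fixed minimum width. Factor peaks stand in columns shared by many libraries, at 15.6 and 89.3 kb in all 14 factor lists, and H3K27ac is dense over the first 150 kb and sparser beyond.

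Tox is known to be transcribed from its higher-coordinate end, and distances are given from there, positive into the gene. The table used here gives no strand for it. Peaks of the 14 factor lists joined into 31 sites at Tox. At 2 of the 31 sites (6.45%) every factor list had a peak, against 2.04% of the 44553 sites of the whole series, and 12 (38.7%) had all 4 factors in at least 1 list, against 18.2%. The sites with a peak in every factor list lay 15.6 kb (chr4:6975699-6976285) and 89.3 kb (chr4:6902012-6902584) into the gene. Both carried H3K27ac in all 4 libraries. A site at 174 kb (chr4:6817119-6817789) had a peak in 13 of the 14 lists, all but Foxp3 of IkE5 library 2. Sites at 87.8 and 109 kb had 12 each. The site nearest the start, 1.06 kb into Tox (chr4:6990168-6990825), had NFAT1 in all 4 libraries, Ikaros in both and p300 in all but IkE5 library 1, while Foxp3 was called in library 1 of each genotype and in library 2 of neither. At the other end, a site 309 kb from the start and outside the gene (chr4:6681850-6682429) had Foxp3 in all 4 libraries and Ikaros in both, with no NFAT1 in any library.

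Of the 31 sites, 8 lay in the first 50 kb, 7 between 50 and 100 kb and 6 between 100 and 150 kb from the start, the stretches that also held most of the H3K27ac. A single site fell in the stretch from 250 to 300 kb, where p300 of WT library 2 had the single peak. That peak lay within Gm11802 (chr4:6700490-6721824), a long noncoding RNA gene annotated inside Tox, at which no library of Foxp3, NFAT1 or Ikaros had a peak. Some sites held 1 factor alone. The site at 143 kb (chr4:6848498-6849118) had Ikaros in both libraries, no other factor and no H3K27ac in any library. The site at 33.2 kb (chr4:6957961-6958762) had NFAT1 in IkE5 library 1 and in both WT libraries, with no other factor, and H3K27ac in all 4 libraries.

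**Figure D2:**
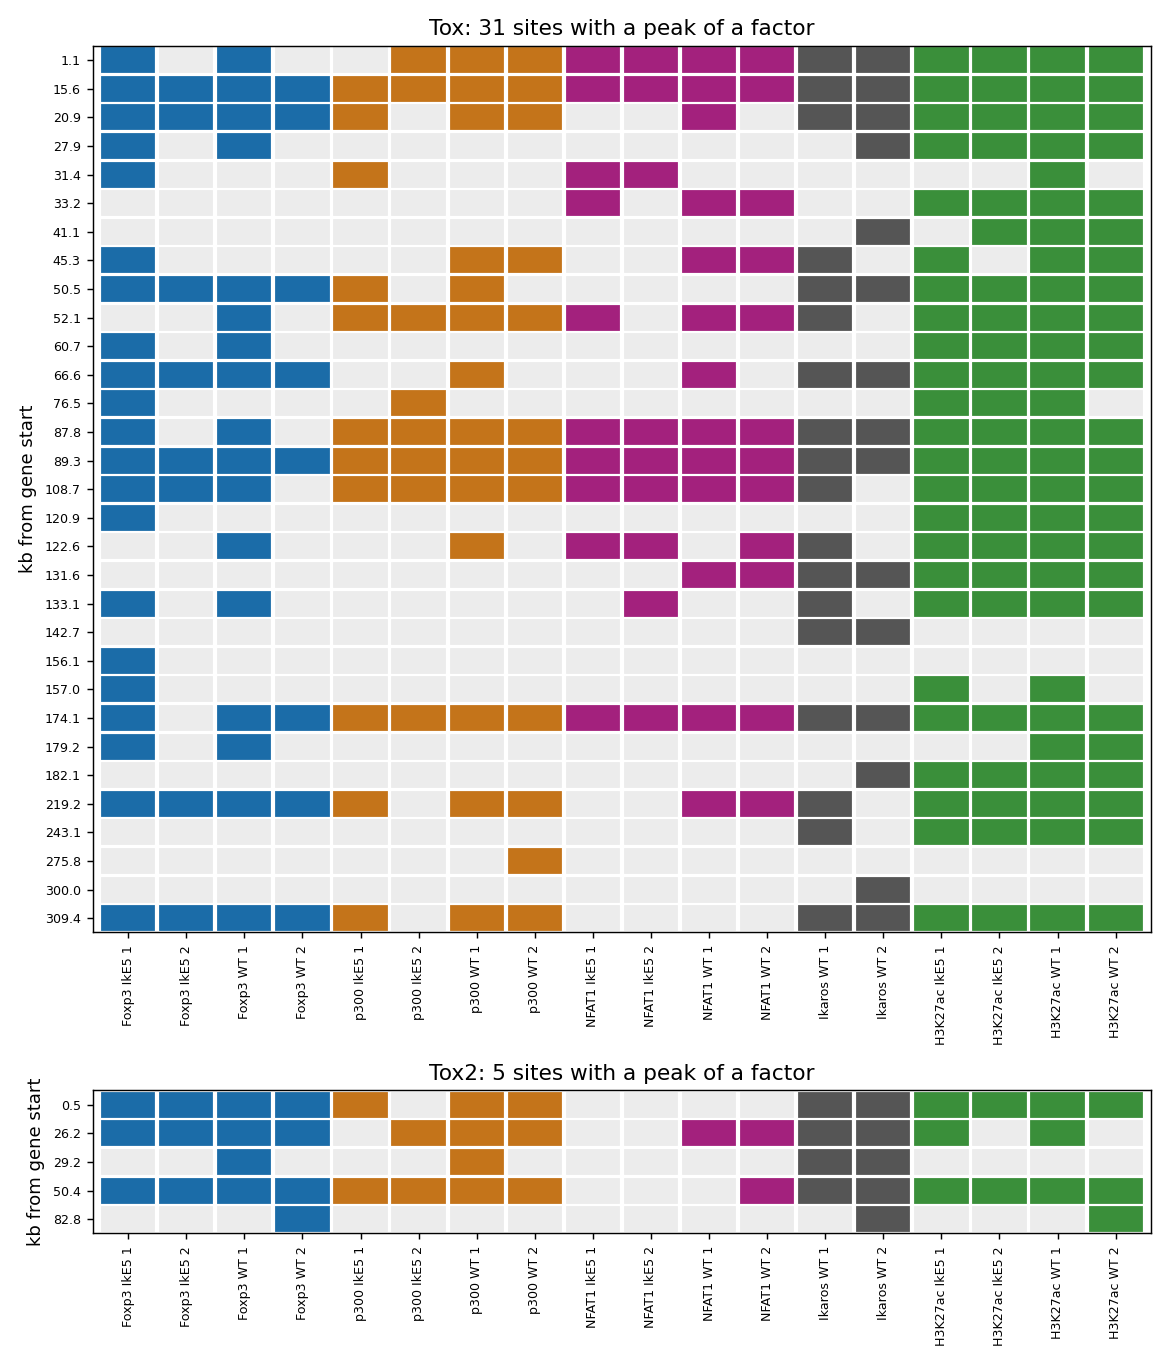
Each row is a site at Tox (31) or Tox2 (5), labelled by its distance in kb from the gene start, and each column a library. A coloured cell means a peak was called there. NFAT1 at 45.3, 132 and 219 kb of Tox and at 26.2 kb of Tox2 is filled in both WT columns and empty in both IkE5 columns, and the reverse holds at 31.4 kb of Tox.

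At both genes in WT cells, most sites with Foxp3 in both libraries also had Ikaros in both, as over the whole series. Ikaros gave 18 and 15 peaks at Tox, which joined into 22 regions, 11 of them present in both libraries. Of those 11 regions, 7 overlapped a region with Foxp3 in both WT libraries, and of all 22 regions 8 did. Over the whole series, 9673 of 16812 sites with Ikaros in both libraries had Foxp3 in both WT libraries. Counted from Foxp3, 7 of 8 sites at Tox with Foxp3 in both WT libraries had Ikaros in both (87.5%), as did 3 of 3 at Tox2, next to 87.4% in the whole series. The site with Foxp3 in both WT libraries but Ikaros in only 1 lay 219 kb into Tox. At Tox2 Ikaros had 4 and 5 peaks, and 4 regions were present in both libraries.

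Foxp3 peaks at Tox did not separate by genotype. Foxp3 had 21 and 8 peaks at Tox in IkE5 and 17 and 8 in WT (means 14.5 ± 9.19 and 12.5 ± 6.36, SD, n = 2 each, exact permutation p = 1). Library 1 was high and library 2 low in both genotypes, and library 1 was also the longer list of each. Per 10000 peaks of the list the values were 9.71 and 4.63 in IkE5 and 8.25 and 4.84 in WT. Library 1 thus stayed above library 2 in each genotype on this scale. Of 23 joined Foxp3 regions, 7 were found in all 4 libraries, and 0 were IkE5 only (both IkE5 and neither WT library) or WT only (the reverse). Over the whole series 22.5% of Foxp3 regions were in all 4 libraries, 3.22% were IkE5 only and 2.44% WT only. Of the 8 regions seen in a single library, 6 came from IkE5 library 1.

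p300, which acetylates H3K27, had fewer peaks at Tox in both IkE5 libraries. The numbers were 11 and 8 in IkE5 and 14 and 12 in WT (9.5 ± 2.12 and 13 ± 1.41, SD, n = 2 each, exact permutation p = 0.333). The groups did not overlap, and the same separation was found at 8.44% of the 10242 genes with p300, with the reverse at 6.19%. Scaled to the length of each list the values were 9.43 and 8.92 per 10000 peaks in IkE5 and 12.2 and 13.7 in WT, again without overlap, a pattern seen at 20.7% of genes, with the reverse at 7.56%. Of 17 joined regions, 6 were in all 4 libraries, 0 were IkE5 only and 1 was WT only. Over all p300 regions these classes held 22.9%, 6.01% and 5.63%. The WT only region lay 45.3 kb into Tox (chr4:6945967-6946524). At 4 further regions both WT libraries and 1 IkE5 library had p300, and these lay at 1.06, 20.9, 219 and 309 kb.

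NFAT1, one of the NFAT proteins, had fewer peaks at Tox in both IkE5 libraries but a larger share of its shorter IkE5 lists. NFAT1 had 10 and 9 peaks at Tox in IkE5 and 13 and 12 in WT (9.5 ± 0.707 and 12.5 ± 0.707, SD, n = 2 each, exact permutation p = 0.333). Both IkE5 values were below both WT values, which was also the case at 29.1% of the 6423 genes with NFAT1. The NFAT1 lists of IkE5 are shorter, with 4908 and 3435 peaks against 7825 and 6850 in WT. Per 10000 peaks of the list the direction turned, with 20.4 and 26.2 at Tox in IkE5 and 16.6 and 17.5 in WT, and on that scale 17.3% of genes were higher and 25.1% lower without overlap. The part of list length in the lower numbers was not tested beyond this scaling.

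Of 16 joined NFAT1 regions at Tox, 6 were in all 4 libraries, 3 were WT only and 1 was IkE5 only. Over all NFAT1 regions these classes held 17.5%, 19.4% and 3.72%. Among the 11 regions that both WT libraries shared, 27.3% had no NFAT1 in IkE5, against 40.6% of 5301 such regions in the series. That difference was not tested. The 6 shared regions were those at 1.06, 15.6, 87.8, 89.3, 109 and 174 kb, each of which also had p300 in at least 3 of 4 libraries and Ikaros in at least 1.

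The WT only NFAT1 regions differed from each other in what else was bound. At 45.3 kb (chr4:6945992-6946505) p300 was WT only as well, Foxp3 was called in IkE5 library 1 alone, Ikaros in 1 of 2 libraries, and H3K27ac in IkE5 library 1 and both WT libraries. At 132 kb (chr4:6859660-6860174) Ikaros was present in both libraries while Foxp3 and p300 had no peak in any, and H3K27ac was present in all 4. At 219 kb (chr4:6772216-6772845) Foxp3 was present in all 4 libraries and H3K27ac in all 4, with p300 in IkE5 library 1 and both WT libraries. The IkE5 only NFAT1 region, at 31.4 kb (chr4:6959870-6960398), was joined by Foxp3 and p300 in IkE5 library 1 alone. Neither Ikaros library had a peak there, and H3K27ac was called over it in WT library 1 only.

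**Figure D3:**
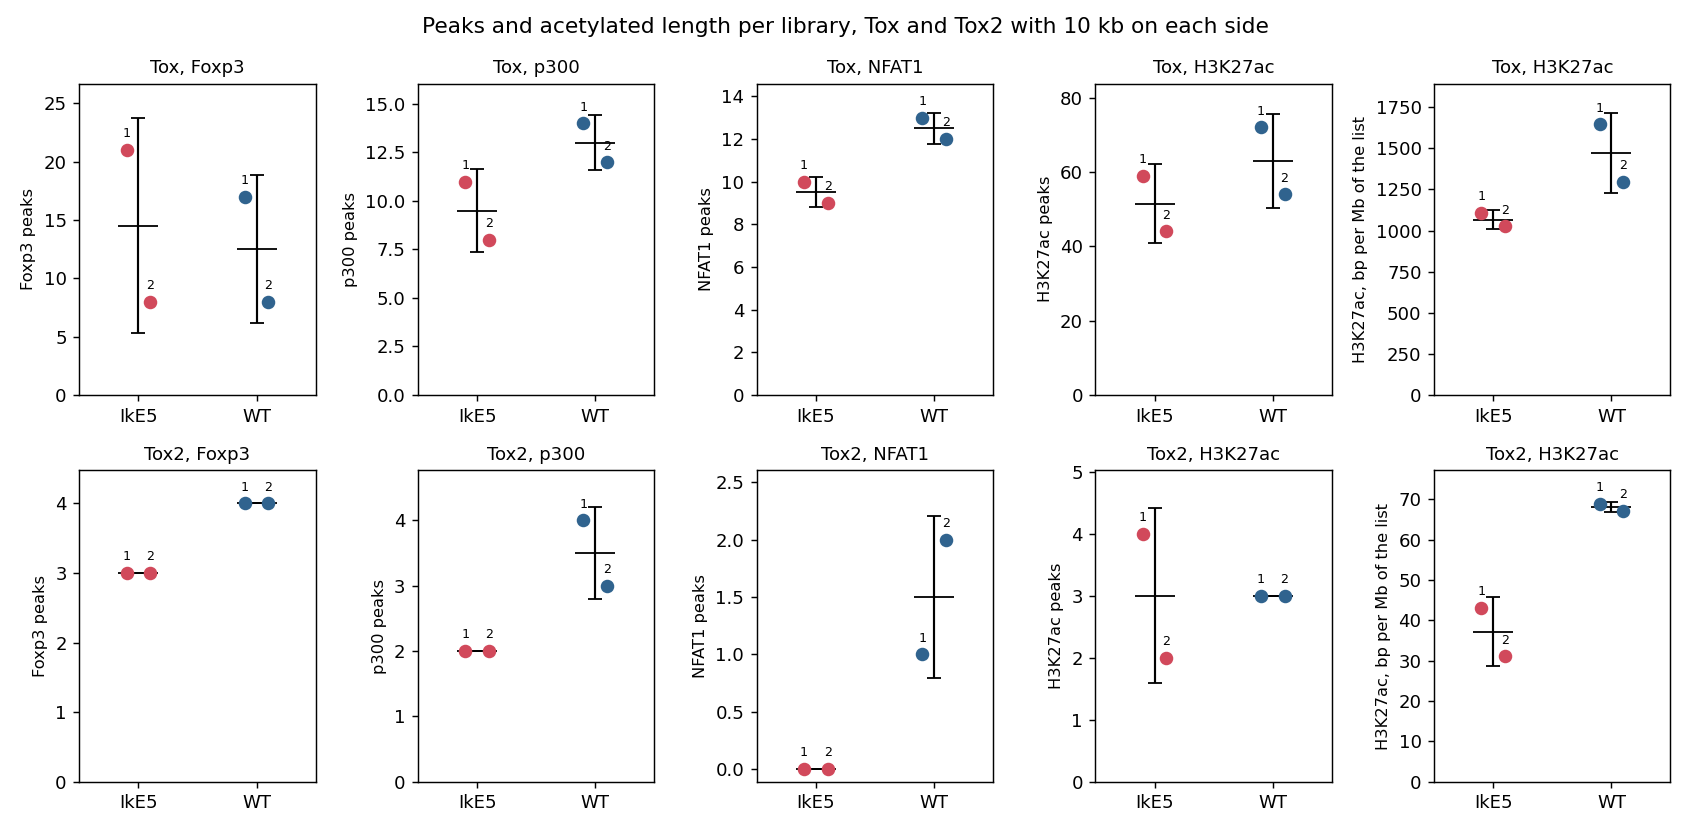
Values of each library (points, numbered 1 and 2) at Tox and Tox2 with 10 kb on each side, IkE5 left of WT, with the mean and SD (n = 2 each). The y axes give the number of peaks and, at the right, the H3K27ac covered length in bp per Mb covered by the whole list. Foxp3 at Tox follows the library number, whereas both IkE5 points lie below both WT points for p300 and NFAT1 peak numbers at both genes (NFAT1 at Tox turns to higher in IkE5 per 10000 peaks of the list) and for scaled H3K27ac length at both genes.

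H3K27ac at Tox did not differ between genotypes past the test. The lower mean of unscaled covered length in IkE5 rested on 1 high WT library. The other WT library, at 70.9 kb, lay below the IkE5 mean of 72.2 kb. H3K27ac peaks at Tox numbered 59 and 44 in IkE5 and 72 and 54 in WT (exact permutation p = 0.667), which overlap. Peak numbers were lower without overlap at 8.55% and higher at 6.08% of the 14790 genes with H3K27ac. Per 10000 peaks of the list they were 12.3 and 11.8 in IkE5 and 13.6 and 15.3 in WT, lower without overlap as at 19.0% of genes. The peaks covered 80.7 and 63.6 kb in IkE5 and 131 and 70.9 kb in WT. WT library 1 stood above the other 3, which lay between 63.6 and 80.7 kb, and the groups overlapped. Relative to the whole list, Tox held 1107 and 1025 bp per Mb in IkE5 and 1646 and 1298 bp per Mb in WT. On this scale both IkE5 values lay below both WT values, as at 20.5% of these genes, with the reverse at 17.8%. The fit with limma on log2(scaled covered length + 1000 bp), IkE5 over WT, gave -0.45 ± 0.19 for Tox (SE, 95% interval -0.87 to -0.03), with a limma adjusted p of 0.346 over 12714 genes, of which 1.12% were called at 0.05 in either direction and 0.385% as lower. The median of all genes tested was -0.02. The estimate for Tox was -0.28 without WT library 1 and -0.62 without WT library 2. It was -0.51 without IkE5 library 1 and -0.40 without IkE5 library 2.

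Most of the H3K27ac of Tox lay in its first 150 kb. Of 71 joined regions, 16 were found in all 4 libraries, 0 were IkE5 only and 3 were WT only. Over all H3K27ac regions these classes held 31.2%, 3.90% and 4.69%. A further 38 were seen in a single library, 27 of these in WT library 1. The WT only regions lay 179, 188 and 267 kb from the start, at chr4:6811667-6813143, chr4:6803261-6803961 and chr4:6724197-6724822. The widest region in all libraries spanned 14.7 kb (chr4:6928091-6942812), of which 10.6 and 9.72 kb were covered in IkE5 and 14.6 and 9.60 kb in WT. Of the 16 shared regions, 7 were shorter in both IkE5 than in both WT libraries and 1 was longer, next to 22.6% and 19.1% of the 20229 such regions of the series. The region at 20.5 kb (chr4:6969081-6972949) was covered over 1.95 and 1.99 kb in IkE5 and 3.75 and 3.67 kb in WT. The one that was longer, at 243 kb (chr4:6747657-6749132), was covered over 1.11 and 1.27 kb in IkE5 and 0.891 and 0.5 kb in WT.

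By distance, the first 50 kb of Tox carried 21.2 and 20.3 kb of H3K27ac in IkE5 and 38.5 and 27.3 kb in WT. From 50 to 100 kb it carried 20.5 and 17.6 kb in IkE5 and 31.2 and 18 kb in WT, and from 100 to 150 kb 24.6 and 15.4 kb in IkE5 and 32.1 and 13.5 kb in WT. In these 2 stretches WT library 1 was high and WT library 2 was within or below the IkE5 values. The stretches were described after the values were seen, and no test was made on them. Their lengths were not scaled to the list, and stretches of other genes were not counted beside them.

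**Figure D4:**
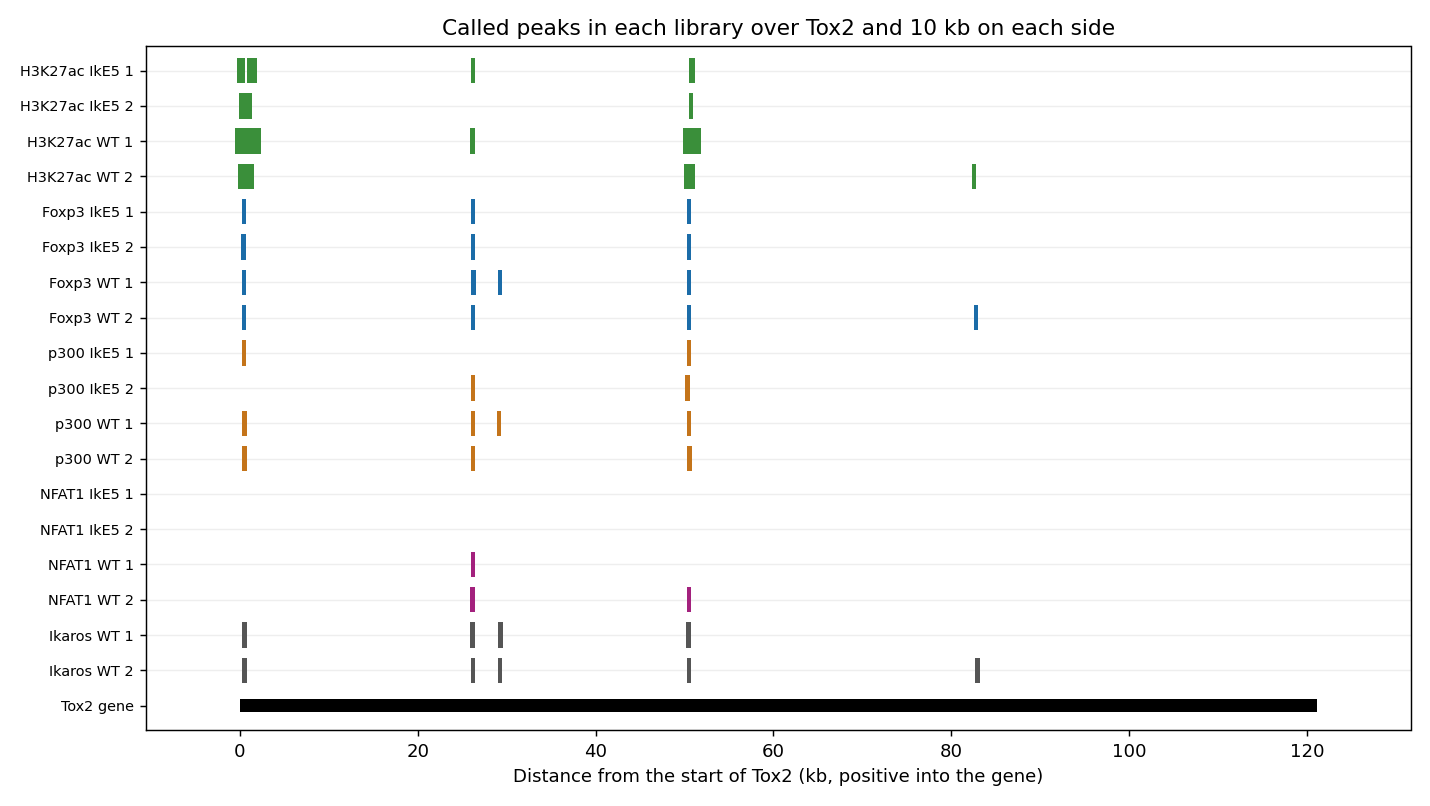
Called peaks over Tox2 in each of the 18 libraries (rows, IkE5 above WT for each target), by distance in kb from the start of the gene, with the gene as a black bar and narrow peaks drawn at a fixed minimum width. The 3 sites at 0.492, 26.2 and 50.4 kb carry Foxp3 in all 4 libraries and Ikaros in both, and the IkE5 NFAT1 rows are empty.

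Tox2 lies on the plus strand and had 5 factor sites, the farthest 82.8 kb from its start. At 3 of them, 0.492 kb (chr2:163203246-163203853), 26.2 kb (chr2:163228957-163229583) and 50.4 kb (chr2:163253140-163253853) into the gene, Foxp3 was present in all 4 libraries and Ikaros in both. The first lies at the start of the gene, so the sequence there is shown, with that of an alternative start further in that had no peak in any list. Both windows run from 250 bases before to 50 after a start of transcription, on the plus strand (RefSeq, GRCm38.p6). The window at chr2:163203033-163203332 was overlapped by Foxp3 peaks of all 4 libraries, by both Ikaros lists, by 1 p300 list and by all 4 H3K27ac lists. The window at chr2:163225203-163225502 was overlapped by none of the 18. Windows of other annotated starts of Tox2 are not printed. Among them, chr2:163202877-163203176 and chr2:163203936-163204235 were overlapped by all 4 H3K27ac lists and by no factor list. Capitals mark matches to the searched letters.
Tox2 start with peaks: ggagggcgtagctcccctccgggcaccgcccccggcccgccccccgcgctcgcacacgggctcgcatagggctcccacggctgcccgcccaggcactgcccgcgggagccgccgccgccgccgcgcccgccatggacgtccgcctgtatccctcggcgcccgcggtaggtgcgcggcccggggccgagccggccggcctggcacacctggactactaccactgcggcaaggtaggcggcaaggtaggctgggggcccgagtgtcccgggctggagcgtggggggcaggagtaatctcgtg
Tox2 start without peaks: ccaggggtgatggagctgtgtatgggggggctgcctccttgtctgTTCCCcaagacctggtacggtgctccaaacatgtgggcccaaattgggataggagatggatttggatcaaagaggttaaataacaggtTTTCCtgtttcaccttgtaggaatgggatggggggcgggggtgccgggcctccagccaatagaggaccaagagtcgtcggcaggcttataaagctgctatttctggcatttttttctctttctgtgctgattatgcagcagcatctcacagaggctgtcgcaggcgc

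The letters searched on both strands were GGAAA (the core bound by NFAT), GGGAA (the core bound by Ikaros), TGTTTAC (forkhead), TGANTCA (AP-1) and TGTGGT (RUNX), where the first 2 overlap in GGGAAA. The window with peaks is 77.7% G and C and held none of them. The window without peaks is 53.3% G and C and held GGGAA once and GGAAA once, both on the other strand and so printed as TTCCC and TTTCC. Of the unprinted windows named above, chr2:163203936-163204235 held GGGAA once and the other held none of the letters. Among 32817 promoter windows of the same length, 61.3% held GGAAA, 62.7% GGGAA, 3.65% TGTTTAC, 7.81% TGANTCA and 16.8% TGTGGT. The windows do not cover the whole of the peaks, and a match or its lack is a description of these letters only.

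NFAT1 had no peak at Tox2 in either IkE5 library, against 1 and 2 peaks in WT (exact permutation p = 0.333). The peak shared by both WT libraries (chr2:163228957-163229513) lay at the site 26.2 kb into the gene, where Foxp3 was present in all 4 libraries, Ikaros in both, and p300 in IkE5 library 2 and both WT libraries. It was the only region with NFAT1 in both WT libraries at Tox2 and was WT only, as were 40.6% of such regions in the series. The second WT peak, in library 2 alone, lay at the site at 50.4 kb. Lower NFAT1 numbers without overlap were found at 29.1% of genes, and higher numbers without overlap at 2.51%.

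Foxp3 and p300 were also fewer at Tox2 in IkE5, by single peaks. Foxp3 had 3 and 3 peaks in IkE5 and 4 and 4 in WT (exact permutation p = 0.333). The fourth peak was at a different place in each WT library, at 29.2 kb in library 1 and at 82.8 kb in library 2, so none of the 5 Foxp3 regions was WT only. The number was lower without overlap at 4.39% of the 13812 genes with Foxp3 and higher at 5.19%. Per 10000 peaks of the list it was lower at 13.6% and higher at 6.46% of them. p300 had 2 and 2 peaks in IkE5 and 4 and 3 in WT (exact permutation p = 0.333). By number, p300 was lower without overlap at 8.44% of the 10242 genes with p300 and higher at 6.19%, and per 10000 peaks of the list lower at 20.7% and higher at 7.56%. At 50.4 kb p300 was present in all 4 libraries, while at 0.492 and 26.2 kb it was present in both WT libraries and in 1 IkE5 library, a different one at each. None of the 4 p300 regions was specific to a genotype.

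H3K27ac at Tox2 covered fewer bases in both IkE5 than in both WT libraries, a difference that did not pass the test. The number of peaks was 4 and 2 in IkE5 and 3 and 3 in WT (exact permutation p = 1). They covered 3.15 and 1.93 kb in IkE5 and 5.49 and 3.67 kb in WT, and relative to the list 43.2 and 31.1 bp per Mb in IkE5 and 68.9 and 67.2 bp per Mb in WT. Both IkE5 values lay below both WT values on both scales. On the scale relative to the list, 20.5% of the 14790 genes with H3K27ac were likewise lower and 17.8% higher without overlap. The share over all genes was not counted for unscaled length. The log2 difference was -0.68 ± 0.21 (SE, 95% interval -1.15 to -0.21) and did not pass over all genes (limma adjusted p = 0.172). At the start of the gene (chr2:163202504-163205492) the region was covered over 2.01 and 1.43 kb in IkE5 and 2.99 and 1.88 kb in WT. At 50.9 kb (chr2:163252917-163254917), over the intragenic site with p300 in all 4 libraries, 0.634 and 0.5 kb were covered in IkE5 and 2.00 and 1.29 kb in WT. Of the 20229 H3K27ac regions of the series in all 4 libraries, 22.6% were likewise shorter in both IkE5 libraries and 19.1% longer. The site at 26.2 kb had H3K27ac in library 1 of each genotype and in library 2 of neither.

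**Figure D5:**
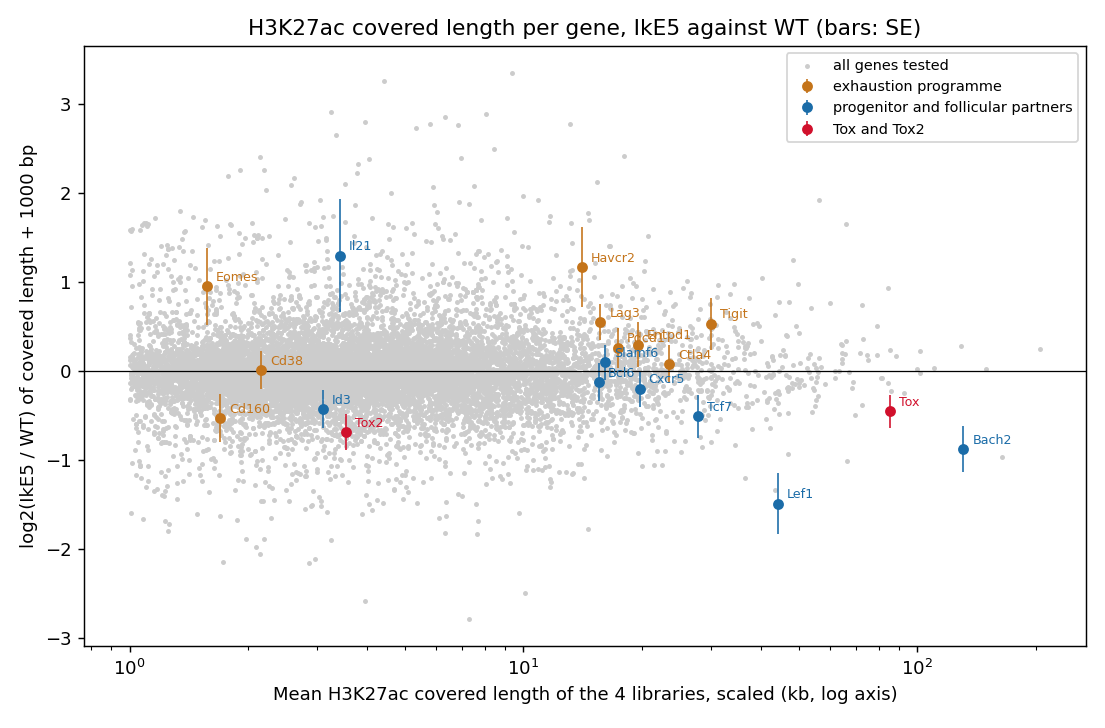
Difference in H3K27ac covered length per gene, log2(IkE5/WT) on the scale of covered length + 1000 bp, against the mean covered length of the 4 libraries in kb on a log axis, with SE bars for the named genes and grey points for all 12714 genes tested. Tox and Tox2 lie at -0.45 and -0.68, and none of the named genes passed 0.05 after adjustment.

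Other genes around TOX were set beside these values. Of the TOX family, Tox3 had no peak in any of the 18 lists, and Tox4 had 2 and 2 H3K27ac peaks in IkE5 and 4 and 2 in WT, with a log2 difference in covered length of -0.17 (limma adjusted p = 0.882). Of the genes that lead to Tox, the calcineurin subunits, the NFAT factors and the NR4A receptors, 0 of 10 passed in either direction, with a median of 0.00. Nfatc1, Nfatc2 and Nfatc3 had log2 differences of 0.34 (limma adjusted p = 0.566), 0.46 (limma adjusted p = 0.372) and -0.10 (limma adjusted p = 0.969). Nfatc2 had 43.5 and 36.9 kb in IkE5 and 37.8 and 21.2 kb in WT.

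Among genes of the exhaustion programme 0 of 9 tested passed and 1 had a difference below 0, with a median of 0.30. Over all genes tested 6831 of 12714 were below 0. Pdcd1, which encodes the inhibitory receptor PD-1, had 0.26 (limma adjusted p = 0.782). Havcr2, which encodes TIM-3, had 1.17 (limma adjusted p = 0.305) and Lag3, another inhibitory receptor gene, 0.55 (limma adjusted p = 0.254). Before scaling, Havcr2 had 25.8 and 13.3 kb in IkE5 and 16.4 and 3.34 kb in WT. These lengths overlap, and WT library 2 was the lowest. Of the partners of progenitor and follicular cells 0 of 8 passed and 6 were below 0, with a median of -0.31. Tcf7, which encodes the progenitor factor TCF-1, had -0.51 (limma adjusted p = 0.428), its relative Lef1 -1.49 (limma adjusted p = 0.0900) and Bcl6, the factor of follicular helper cells, -0.12 (limma adjusted p = 0.951). No difference between the lists was tested. NFAT1 numbers were lower without overlap in IkE5 at 4 of the 6 progenitor and follicular genes with an NFAT1 peak. The same held at 0 of 6 exhaustion genes, beside 29.1% of all genes with NFAT1. Higher numbers without overlap were found at 1 exhaustion gene, Pdcd1, with 4 and 4 peaks in IkE5 and 3 and 3 in WT. They were found at 0 progenitor and follicular genes, beside 2.51% of all genes with NFAT1. These numbers were not scaled, and the NFAT1 lists of IkE5 are shorter (4908 and 3435 peaks against 7825 and 6850 in WT). As a share of the list, Tcf7 and Lef1 stayed lower in both IkE5 libraries and Cxcr5 overlapped. Bach2, with 14 and 9 peaks in IkE5 and 17 and 15 in WT, turned higher in IkE5 on that scale. On that scale 25.1% of all genes with NFAT1 were lower and 17.3% higher without overlap. The exhaustion genes are not given on it. The part of list length in the contrast was not tested further.

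Over the 18 lists, the genes whose numbers of peaks were most like those of Tox were Ikzf2, which encodes the Ikaros relative Helios of Treg cells, with r = 0.946, Bach2, which encodes a repressor of effector genes, with r = 0.940, and Birc3, which encodes an inhibitor of apoptosis protein, with r = 0.929. The measure was Pearson's r of log2(peaks per 10000 peaks of the list + 1) among 11335 genes with a peak in at least 9 lists, and 8 genes other than Tox exceeded 0.9. For Tox2 they were Bbof1 (r = 0.942), 1700001P01Rik (r = 0.936) and Ubtd2 (r = 0.935), with 26 genes above 0.9. The 18 points share 5 targets and their list lengths, and differences between targets enter the coefficients together with those between genotypes.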

How the data were processed

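The deposited lists give chromosome, start and end of peaks, 1 list per library, with no score, so the authors' calling threshold could not be varied. Per the submitters' processing notes FastQC, Bowtie2, MACS2, bedtools and HOMER were used with mm10. The sources used here do not say which of them called the peaks or with which settings. Factor peaks are 500 bp wide with few exceptions, so only their presence was used.

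Peaks of a target were joined where they overlapped by at least 1 bp. Peaks per library were compared by a 2-sided exact permutation test. H3K27ac covered length per gene with 10 kb on each side was scaled to the total of the library and fitted with limma 3.58.1 in R 4.3.3 (trended prior, pseudocount 1000 bp, genes averaging 1000 bp or more, Benjamini-Hochberg adjustment over 12714 genes at 0.05), after a check on simulated data. The pseudocount makes log2 differences of short coverage smaller. Named genes were the members, the first 3 genes of each list and, by likeness, the 3 genes per member with the highest r. The members and lists were chosen with earlier results of these data known. No pair of lists of a target shared more than 0.672% of its intervals exactly.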

Additional observations from a re-analysis of the deposited data

How the results depend on the processing

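At Tox2 the log2 difference in H3K27ac covered length stayed at -0.68 with library number as a replicate block, and the limma adjusted p fell below 0.05 (0.0290, against 0.172 without the block), while Tox reached 0.0549. The labels do not say that numbers mark pairs. Same-numbered libraries deviated together (r = 0.460 across 12714 genes), which with 2 pairs cannot tell whether the design was paired. The number of genes called by limma, 143, was 1250 with the block, 37 with a pseudocount of 100 bp, 78 without the filter, 0 without scaling (1156 at an unadjusted p under 0.05), and 126 to 631 with 1 library left out. NFAT1 at Tox, lower by peak number, was higher by 6.22 peaks per 10000 peaks of the list. The Foxp3 difference at Tox, 2 peaks, ran from -4.5 without IkE5 library 1 to 8.5 without IkE5 library 2 and was -2.5 without WT library 2.

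Genotype-specific regions depended on single libraries, since leaving 1 out loosens their definition. At Tox they numbered 1 to 6 for Foxp3, 2 to 5 for p300, 4 to 7 for NFAT1 and 6 to 31 for H3K27ac (31 without WT library 2), and at Tox2 0 to 1 for Foxp3, p300 and H3K27ac and 1 to 2 for NFAT1. Joining H3K27ac at 250 bp of overlap gave 5 at Tox, and H3K27ac peaks of at least 1000 bp gave 1 at Tox2. Ikaros regions at Tox numbered 22 in either library and 15 to 18 with 1 left out. The difference in H3K27ac peaks at Tox2, 0, ran from -1 to 1 with a library left out and was -0.5 with 50 kb on each side and -0.022 per 10000 peaks of the list. No other difference in peak number or covered length at Tox or Tox2 changed sign or call under the settings tried. A stricter peak threshold could not be tried without scores.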
